A study of Drosophila melanogaster with 6 samples.

Results

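The genes at the core of programmed cell death were followed in Drosophila leg discs across the larval to pupal transition. The 10 genes were chosen by name: the inducers rpr, hid, grim and skl, the inhibitors Diap1 and Diap2, the initiator caspase gene Dronc with its partner Dark, and the effector caspase genes Drice and Dcp-1. All 10 were found among the 15125 genes that could be counted. Leg discs of the genotype white [1118], at 2 hours after pupal formation (2h APF, titled pupae) in 3 libraries and at the wandering larval stage (wL3, titled larvae) in 3 libraries, were sequenced from polyA RNA. All 6 libraries share genotype and tissue, so that the stage is the only labelled difference between them, and the sex and the number of discs in a library are not given in the sources used here.

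Fly cells hold the caspases ready to act and keep them in check with the protein Diap1, a ubiquitin ligase that binds Dronc and Drice. The inducers bind to the inhibitor through a short motif at their N-terminal end and so release the caspases. Freed Dronc assembles with Dark into the apoptosome and then cleaves Drice and Dcp-1, which dismantle the cell. In larval tissues that die at metamorphosis the steroid hormone ecdysone is known to turn on rpr and hid, whereas most of the leg disc lives on to form the adult leg.

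Summed over all targets, the 2h APF libraries held 24395318 to 30880112 estimated counts and the wL3 libraries 27514509 to 33373176. Levels are given as CPM, a share of the library's counts scaled between libraries with TMM, and levels of different genes are compared only as TPM, which takes transcript length into account. The leg disc markers Dll, dac, hth, Sp1, bab2, Antp, tsh and nub were present in all 6 libraries and summed to between 2965 and 3097.5 CPM at 2h APF and between 3331 and 3391 CPM at wL3. RNA of other larval tissues was also present and was uneven among the wL3 libraries. The 5 fat body markers summed to between 188 and 857 CPM at 2h APF, against 32.3, 3333 and 2211 CPM in wL3 replicates 1, 2 and 3. The 6 salivary gland markers summed to at most 0.659 CPM at 2h APF, against 70.2, 75.1 and 230 CPM in those wL3 libraries, and 5 of the 6 held at most 3 counts in every 2h APF library. The 6 hemocyte markers summed to between 21.2 and 28.7 CPM at 2h APF and between 144 and 299 CPM at wL3.

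To find which death genes differed between the stages, the quasi-likelihood test of edgeR was run on each gene, with Benjamini-Hochberg adjustment of the p-values over all 8935 genes tested. Of the 10 genes, 7 were higher and 1 was lower at 2h APF at an adjusted p under 0.05. Over all genes tested 67.5% passed in either direction, 30.6% as higher and 36.9% as lower, so that passing the test does not set the death genes apart. Grim and skl passed the filter on low counts through their 2h APF libraries, and their difference is partly built into that filter. The median log2 fold change of the 10 genes was 0.31, against -0.04 over all genes tested. Beyond 1 log2 unit, 2 of the 10 genes were higher and 0 lower, against 9.74% and 8.89% of all genes. In 8 of the 10 genes the libraries of the stages did not overlap, as in 73.4% of all genes tested, and in 7 of them the 2h APF libraries were the higher ones, as in 33.4% of all genes tested. For a single gene the two-sided exact permutation test cannot go below p = 0.1 with 3 libraries against 3, and this value was reached in these 8 genes. The labels do not say whether the libraries of a stage come from separate dissections, so the p-values measure the spread between these libraries. As bulk RNA was measured, a change in the number of expressing cells and a change in RNA per cell cannot be told apart.

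**Figure D1:**
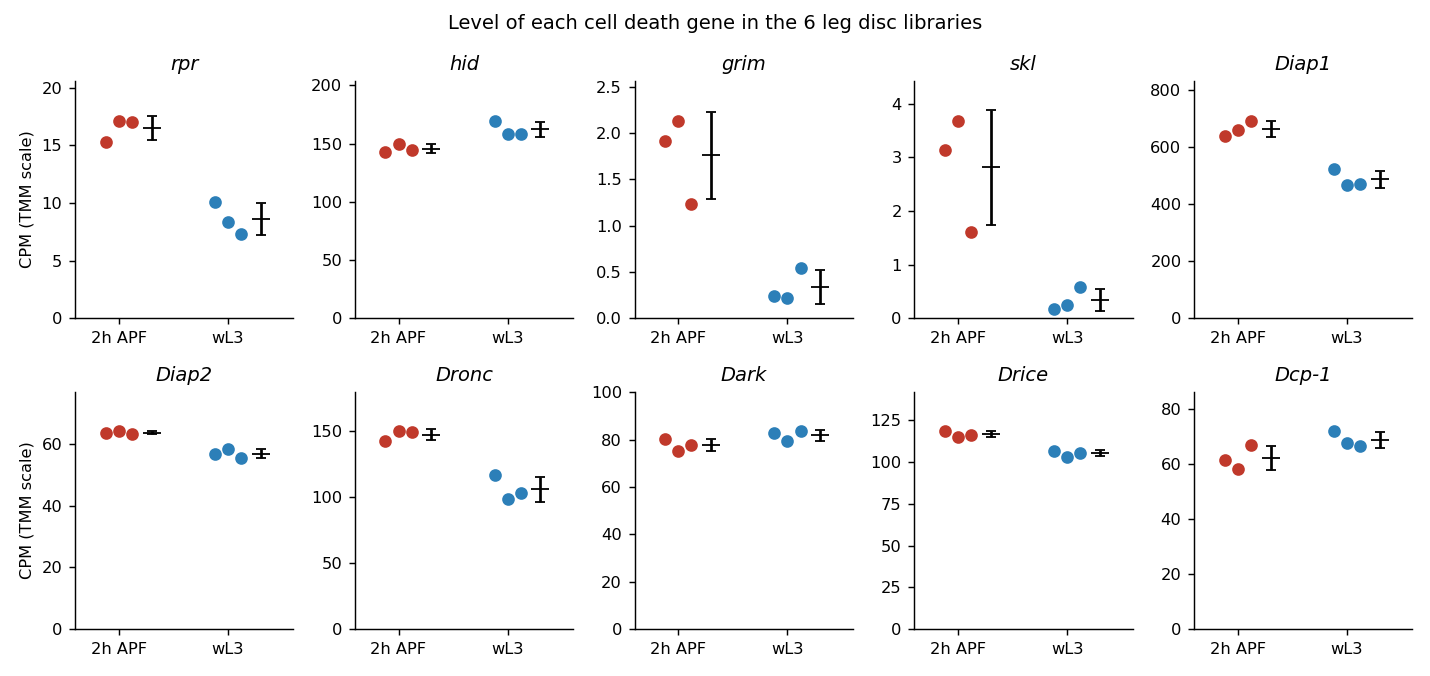
Level of the 10 death genes in each library in CPM on the TMM scale, with 2h APF libraries in red and wL3 libraries in blue, and the mean with its SD in black. Axes start at 0. Rpr lay between 15.3 and 17.1 CPM at 2h APF and between 7.30 and 10.1 CPM at wL3, while Dark and Dcp-1 overlapped between the stages.

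The inducers did not move together. Rpr, grim and skl were higher at 2h APF, and hid, the inducer with the highest level at both stages, was slightly lower. All 4 genes lie on the reverse strand of chromosome arm 3L within 272 kb of the BDGP6.54 assembly, in the order hid, grim, rpr and skl.

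Rpr, in BDGP6.54 from 18397535 to 18398435 on 3L, is a gene of 1 exon that encodes a protein of 65 residues. Its RNA reached 15.3, 17.1 and 17.04 CPM in the 2h APF libraries, against 10.1, 8.38 and 7.30 CPM in the wL3 libraries (replicates 1, 2 and 3, an order kept throughout). Every 2h APF library was thus above every wL3 library, and the highest wL3 value came from the library with the least fat body RNA. Its log2 fold change was 0.94 (standard error 0.127, 95% interval 0.64 to 1.24, edgeR adjusted p = 0.000493), which is 1.92-fold. The counts behind it were between 351 and 485 at 2h APF and between 232 and 334 at wL3. Set against wL3 replicate 1 alone, an alternative chosen after seeing the data that leaves out the 2 wL3 libraries rich in fat body RNA, the log2 fold change was 0.69 (adjusted p = 0.00636, edgeR, with the lone library assumed to vary like the others).

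Hid lies at the other end of the group, from 18167745 to 18185641, and has 4 exons and a product of 410 residues. It held 143, 150 and 144 CPM in the 2h APF libraries, against 170, 158 and 159 CPM in the wL3 libraries. The stages did not overlap, but the difference was small, with a log2 fold change of -0.16 (standard error 0.0402, 95% interval -0.25 to -0.06, edgeR adjusted p = 0.0114). With DESeq2 in place of edgeR the adjusted p was 0.0586 and the log2 fold change -0.11. The value also moved with wL3 replicate 1, to -0.10 without it and to -0.24 against it alone (adjusted p = 0.0347 and 0.00905, edgeR). Practically all of its counts were assigned to the transcript hid-RA, which has the long 3' end, in each of the 6 libraries, and the shorter hid-RB came out at less than 1 count.

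Grim, from 18302719 to 18304417, encodes a protein of 138 residues and was close to the limit of detection at wL3. Its libraries held 44, 55 and 35 counts at 2h APF, against 8, 6 and 18 counts at wL3. This corresponds to 1.92, 2.13 and 1.23 CPM at 2h APF and to 0.241, 0.217 and 0.543 CPM at wL3, a log2 fold change of 2.37 (standard error 0.452, 95% interval 1.30 to 3.44, edgeR adjusted p = 0.00281). In BDGP6.54 the lncRNA CR45975 on the same strand and the antisense RNA CR45974 lie within grim. Neither is among the targets that were counted, so that reads from CR45975 could have been counted as grim.

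Skl, or sickle, from 18438561 to 18439942, encodes a protein of 108 residues and had the largest fitted change of the 10 genes. It held 72, 95 and 46 counts at 2h APF, against 6, 7 and 19 counts at wL3. The levels were 3.13, 3.69 and 1.62 CPM at 2h APF and 0.181, 0.253 and 0.573 CPM at wL3, a log2 fold change of 3.04 (standard error 0.530, 95% interval 1.78 to 4.30, edgeR adjusted p = 0.00182). The intervals of grim and skl are wide because of the low counts at wL3, and they overlap each other.

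Grim and skl followed the same order among the 2h APF libraries, with replicate 2 highest and replicate 3 lowest, and both were highest at wL3 in replicate 3. The fat body markers had the same order at 2h APF, at 550, 857 and 188 CPM in replicates 1, 2 and 3. At wL3 they stood at 32.3, 3333 and 2211 CPM, an order that neither grim nor skl followed. In fat body RNA wL3 replicates 2 and 3 lay above every 2h APF library, and in grim and skl they lay below. The 3 neuron and glia markers, elav, nSyb and repo, summed to 109, 115.4 and 108 CPM at 2h APF, against 87.7, 99.9 and 99.8 CPM in the wL3 libraries. Among them, nSyb stood at 8.27, 9.15 and 5.69 CPM at 2h APF and at 2.14, 4.41 and 6.58 CPM at wL3. This was the order of skl at both stages and of grim at 2h APF, and grim was also highest at wL3 in replicate 3. Neither elav nor repo had that order. The salivary gland markers summed to 70.2, 75.1 and 230 CPM in the wL3 libraries and to at most 0.659 CPM at 2h APF. The part of these tissues in the levels of grim and skl was not tested. Without any single library the log2 fold change stayed between 2.16 and 2.91 for grim and between 2.75 and 3.67 for skl.

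Between hid and skl the annotation places 4 other protein coding genes and several non-coding RNAs, of which 5 genes were among the targets. The genes CheA75a, CG5103 and CG13700 and the lncRNA CR43306 held 0 counts in all 6 libraries, which allows up to 3 counts per library, or at most 0.131 CPM in any of them. CG7320 held 15, 11 and 21 counts at 2h APF, against 4, 97 and 45 counts at wL3, a difference that did not pass the test (log2 fold change -1.44, 95% interval -3.71 to 0.84, edgeR adjusted p = 0.221). The inducers were therefore transcribed in a stretch in which most other annotated genes that were counted gave no reads.

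**Figure D2:**
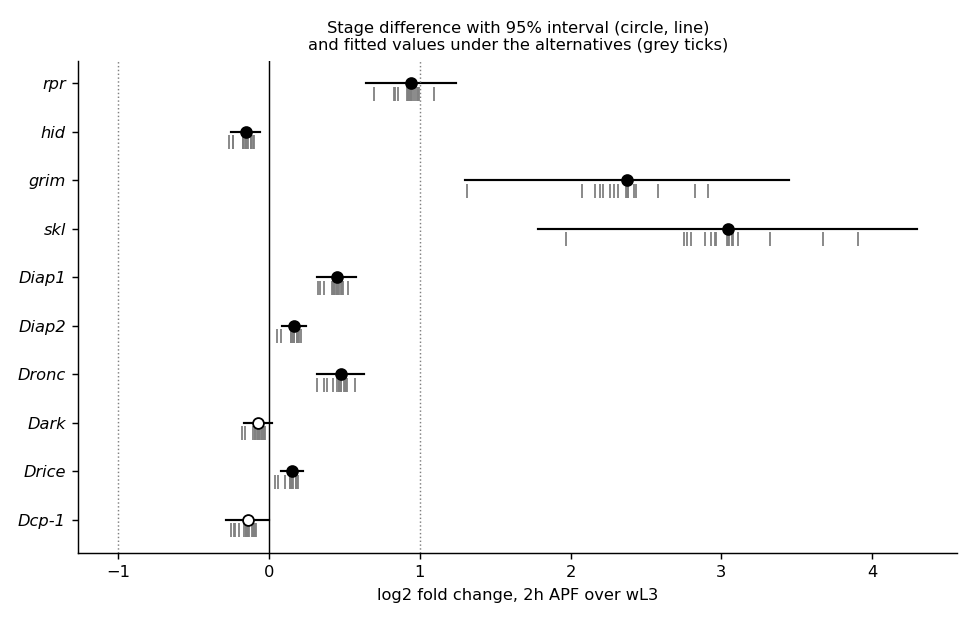
Log2 fold change of each death gene, 2h APF over wL3, with its 95% interval (circle and line, filled where the adjusted p was under 0.05). Grey ticks are the fitted values under the alternatives, and dotted lines mark 1 log2 unit. Skl at 3.04 and grim at 2.37 lie beyond the line with wide intervals, rpr at 0.94 lies just inside it, and the other genes lie between -0.16 and 0.47.

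Both inhibitors were higher at 2h APF, Diap1 by more than Diap2. Diap1, on 3L of BDGP6.54 from 16038410 to 16051034, encodes 438 residues and is needed in most fly cells to keep caspases silent. Its level was 639, 661 and 694 CPM in the 2h APF libraries, against 523, 468 and 470 CPM in the wL3 libraries. The stages did not overlap, with a log2 fold change of 0.45 (standard error 0.0537, 95% interval 0.32 to 0.58, edgeR adjusted p = 0.000278), or 1.36-fold. Of all genes tested, 22.4% had a higher log2 fold change.

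Diap2, on 2R from 15932170 to 15934825, is a related inhibitor that is best known for its role in the Imd immune pathway and also binds Drice. It stood at 63.7 ± 0.421 CPM at 2h APF and at 56.9 ± 1.45 CPM at wL3 (SD, n = 3 each). The log2 fold change was 0.16 (standard error 0.0331, edgeR adjusted p = 0.00387) and the stages did not overlap. When libraries were scaled by their totals it was 0.05 (adjusted p = 0.217, edgeR), so the call depends on the scaling.

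The 6 transcripts of Diap1 share 1 coding sequence and differ mainly in their first exons, and not all of them passed the test. Diap1-RA starts with the exon from 16046485 to 16046846, and Diap1-RC with the exon from 16042407 to 16042570, 3.91 kb further along the direction of transcription. These 2 transcripts held most of the estimated counts of the gene. Diap1-RA stood at 412, 440 and 453 CPM in the 2h APF libraries, against 301, 267 and 267 CPM in the wL3 libraries. Its log2 fold change was 0.61 (standard error 0.0622, 95% interval 0.46 to 0.77, adjusted p = 0.000586, edgeR with transcripts as features). Diap1-RC stood at 211, 196 and 215 CPM in the 2h APF libraries, against 212, 190 and 191 CPM in the wL3 libraries, so that the stages overlapped (log2 fold change 0.04, 95% interval -0.10 to 0.19, edgeR adjusted p = 0.618).

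Diap1-RA accordingly made up 65.4 ± 1.05% of the Diap1 counts at 2h APF and 57.1 ± 0.368% at wL3, while Diap1-RC made up 31.2 ± 1.64% at 2h APF and 40.5 ± 0.0422% at wL3 (SD, n = 3 each). The log2 ratio of Diap1-RA to Diap1-RC was 1.07 ± 0.0981 at 2h APF and 0.50 ± 0.0105 at wL3, a difference of 0.57 (p = 0.1 in the exact permutation test over libraries, two-sided, and no smaller p is possible with n = 3 each). The minor transcripts Diap1-RD and Diap1-RE were also higher at 2h APF, at 13.7 ± 4.66 and 7.96 ± 0.936 CPM, against 6.04 ± 0.521 and 4.05 ± 0.812 CPM at wL3 (SD, n = 3 each). Their log2 fold changes were 1.15 and 0.95 (adjusted p = 0.0182 and 0.0132, edgeR). Diap1-RB and Diap1-RF held at most 0.258% of the counts of the gene in each library. The split between transcripts was estimated by kallisto from the reads that touch the first exons and is less certain than the sum. The transcripts were compared after the values had been seen. The antisense RNA CR45889, which was not counted, overlaps the first exon of Diap1-RC, and it is not stated whether the counting used the strand.

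**Figure D3:**
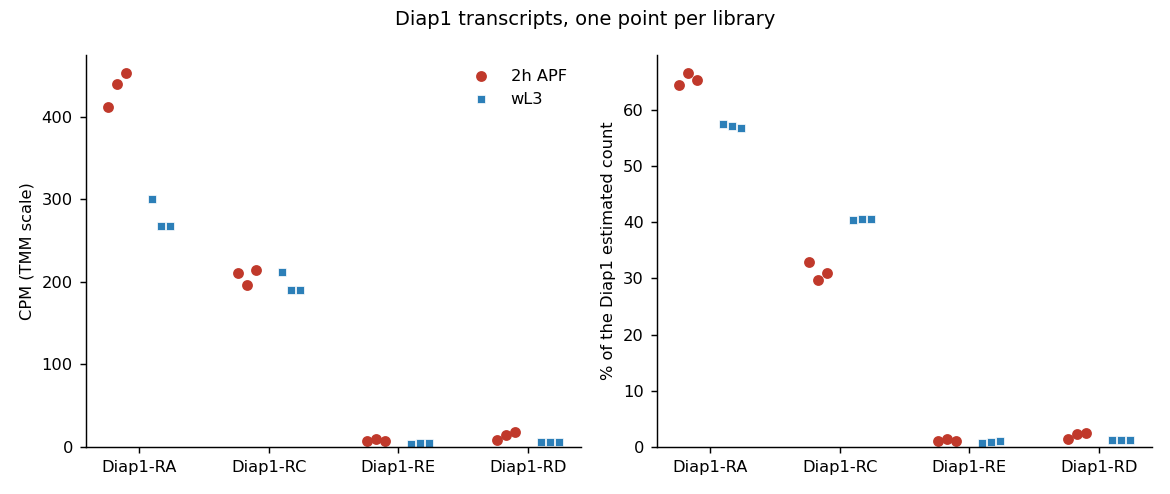
CPM (left) and percent of the Diap1 estimated count (right) of 4 Diap1 transcripts, 1 point per library, with 2h APF in red and wL3 in blue. Diap1-RA lies between 412 and 453 CPM at 2h APF and between 267 and 301 CPM at wL3, while the points of Diap1-RC overlap.

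Among the caspase genes and their activator, Dronc rose 1.39-fold and Drice 1.11-fold, while Dark and Dcp-1 did not pass the test. Dronc, on 3L from 9968479 to 9971002, encodes the initiator caspase of 450 residues. Its level was 142, 150 and 149 CPM in the 2h APF libraries, against 116, 98.2 and 102 CPM in the wL3 libraries. The libraries of the stages did not overlap, and the log2 fold change was 0.47 (standard error 0.0651, 95% interval 0.32 to 0.63, edgeR adjusted p = 0.000552). As with rpr and Diap1, wL3 replicate 1 was the highest of the wL3 libraries. Set against that library alone, the log2 fold changes were 0.32 for Dronc and 0.33 for Diap1 (adjusted p = 0.00386 and 0.00589, edgeR).

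Dark, on 2R from 17020027 to 17026703, encodes the adaptor with which Dronc forms the apoptosome. Its level was 80.3, 75.3 and 77.9 CPM at 2h APF, against 82.7, 79.3 and 83.6 CPM at wL3. The stages overlapped, and the difference did not pass the test (log2 fold change -0.07, 95% interval -0.17 to 0.02, edgeR adjusted p = 0.141). A change of Dark as large as that of Dronc lies outside this interval.

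Drice, on 3R from 29799658 to 29801584, encodes the main effector caspase of the fly. It stood at 119, 115.1 and 116 CPM in the 2h APF libraries and at 107, 103 and 106 CPM in the wL3 libraries, with a log2 fold change of 0.15 (standard error 0.0307, edgeR adjusted p = 0.00413). With total library size the log2 fold change was 0.04 (adjusted p = 0.350, edgeR). Dcp-1, on 2R from 23551313 to 23553547, encodes the effector caspase whose cleaved form is the usual antibody mark of dying disc cells. It held 61.5, 58.0 and 66.9 CPM at 2h APF, against 71.8, 67.5 and 66.4 CPM at wL3, with 2h APF replicate 3 inside the range of the wL3 libraries (log2 fold change -0.14, 95% interval -0.29 to just above 0, edgeR adjusted p = 0.0713). Without 2h APF replicate 3 the log2 fold change was -0.20 (adjusted p = 0.0187, edgeR). Dcp-1 lies within the span of pita on the other strand, which was counted as a gene of its own. These values are of RNA and hold no information on cleavage.

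The small changes depend on how the libraries are scaled. Scaling by total counts instead of TMM moved the median log2 fold change of all genes by -0.11. With that scaling Diap2 and Drice did not pass, and Dark and Dcp-1 passed as lower, with log2 fold changes of -0.18 and -0.25 (adjusted p = 0.00816 and 0.00746, edgeR). The direction was the same under every scaling that was run for all 10 genes, and the calls of rpr, grim, skl, Diap1, Dronc and hid were the same with TMM, total library size and upper-quartile scaling.

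Per length, Diap1 had the highest level of the 10 genes in every library, at 454 ± 16.8 TPM at 2h APF and 336 ± 17.9 TPM at wL3 (SD, n = 3 each). At 2h APF it was followed by Dronc (96.4 ± 1.75 TPM), Drice (80.4 ± 2.05 TPM), Dcp-1 (47.8 ± 3.57 TPM), hid (44.9 ± 0.770 TPM), Diap2 (39.9 ± 0.389 TPM), rpr (29.1 ± 1.41 TPM), Dark (19.9 ± 0.886 TPM), skl (2.87 ± 1.09 TPM) and grim (1.41 ± 0.376 TPM). Of these neighbours only Dcp-1 and hid, and skl and grim, overlapped between libraries. At wL3 Drice (72.5 ± 1.02 TPM) and Dronc (69.4 ± 5.58 TPM) overlapped, and rpr (15.2 ± 2.26 TPM) lay below Dark (20.9 ± 0.601 TPM). The order of rpr and Dark thus differed between the stages, while Dronc and Drice could not be put in order at wL3, where Dronc was the higher of both in replicate 1.

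**Figure D4:**
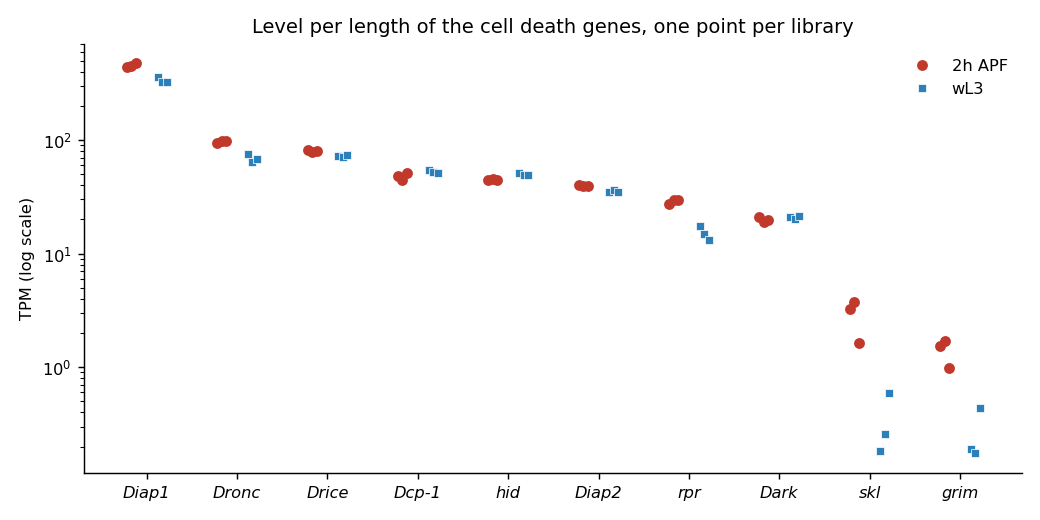
TPM of the 10 death genes on a log scale, 1 point per library, 2h APF in red and wL3 in blue, ordered by the mean at 2h APF. Diap1 stands above all others at 336 TPM or more on average, and skl and grim lie below 4 TPM in every library.

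Within a library the make-up of the inducers differed between the stages. Of the summed TPM of the 4 inducers, rpr made up 37.2 ± 1.48% at 2h APF and 23.1 ± 2.30% at wL3, hid 57.4 ± 0.851% at 2h APF and 76.0 ± 1.75% at wL3, and grim with skl 5.45 ± 1.78% at 2h APF and 0.946 ± 0.593% at wL3 (SD, n = 3 each). The summed inducers came to 78.2 ± 2.52 TPM at 2h APF and to 65.7 ± 3.45 TPM at wL3. In CPM, where the long hid transcript weighs more, the sum was 167 ± 5.32 at 2h APF and 171 ± 7.69 at wL3, with overlapping libraries, so the direction of the sum depends on the scale. The share of rpr in that sum was 9.90 ± 0.499% at 2h APF and 4.99 ± 0.605% at wL3. In TPM, the sum of the 4 inducers relative to Diap1 was 0.173 ± 0.00957 at 2h APF and 0.196 ± 0.00219 at wL3. In the 2h APF libraries this ratio lay between 0.163 and 0.182 and in the wL3 libraries between 0.193 and 0.198, so that it was lower in each 2h APF library. Hid made up most of that sum. The log2 fold changes of rpr, grim and skl were 0.94, 2.37 and 3.04, against 0.45 for Diap1, so these inducers rose relative to Diap1. The TPM ratio of Diap1 to Dronc lay between 4.59 and 4.85 at 2h APF and between 4.72 and 5.01 at wL3, and the stages overlapped. Also in TPM, the ratio of Dronc to Dark was 4.85 ± 0.291 at 2h APF and 3.33 ± 0.259 at wL3, and that of Drice to Dcp-1 was 1.69 ± 0.114 at 2h APF and 1.37 ± 0.0452 at wL3. These ratios are within a library and do not depend on the scaling between libraries, but depend on whether length is taken into account, and they are given as a description of RNA levels.

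Beside the core genes, 46 genes in 6 lists of the wider pathway were examined. Of the 43 that could be tested, 19 were higher and 11 lower at 2h APF and 13 did not pass, against 30.6% higher and 36.9% lower over all genes. The median log2 fold change of the 43 genes was 0.14, against -0.04 over all genes. Beyond 1 log2 unit, 4 were higher and 2 lower, against 9.74% and 8.89% of all genes, and 1 of the 4, NimC4, passed the filter on low counts through its 2h APF libraries.

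Of the 4 other caspase genes, Strica was higher at 2h APF, at 10.9 ± 0.253 CPM against 6.75 ± 0.273 CPM at wL3 (SD, n = 3 each, log2 fold change 0.69, edgeR adjusted p = 0.000407). Dredd, the caspase of the Imd pathway, was slightly lower, at 69.1 ± 1.69 CPM at 2h APF and 76.6 ± 5.02 CPM at wL3 (SD, n = 3 each, log2 fold change -0.15, edgeR adjusted p = 0.0425). The call of Dredd was lost with DESeq2 (adjusted p = 0.204) and when any library other than wL3 replicate 2 was left out, and without wL3 replicate 1 the log2 fold change was -0.080 (adjusted p = 0.140, edgeR). Damm and Decay had too few counts to be tested. Damm held 3 counts in each 2h APF library and 9, 5 and 7 counts in the wL3 libraries, and Decay held 7, 7 and 6 counts at 2h APF and 0, 4 and 12 counts at wL3. The leg disc libraries thus held RNA of the caspases Dronc, Drice, Dcp-1, Dredd and Strica well above that limit.

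Of 9 regulators of the inhibitors and caspases, 4 were higher, 1 was lower and 4 did not pass, against 30.6% higher and 36.9% lower over all genes. Det (deterin), a small inhibitor of the survivin kind that also works in mitosis, fell to 12.2 ± 1.87 CPM at 2h APF, against 25.3 ± 2.17 CPM at wL3 (SD, n = 3 each, log2 fold change -1.06, edgeR adjusted p = 0.000225). The ubiquitin conjugating enzyme gene eff rose by 0.55 on the log2 scale (adjusted p = 1.13e-05, edgeR), and Ubr3, a ubiquitin ligase that binds Diap1, rose by 0.21 (adjusted p = 0.000516, edgeR). Of 7 genes of the Bcl-2 family and the mitochondria, 2 were higher, 2 lower and 2 did not pass, against the same shares over all genes. Cytochrome c (Cyt-c-p) rose by 0.77 and the membrane protein BI-1 by 0.39, while AIF fell by 0.17 (adjusted p = 1.04e-05, 0.000553 and 0.0146, edgeR). The call of AIF was lost with DESeq2 (adjusted p = 0.0833) and without wL3 replicate 1 or 2 (adjusted p = 0.0641 and 0.0672, edgeR). The testis form Cyt-c-d held at most 3 counts in any library and was not tested. Of 5 nuclease genes, DREP1, the inhibitor of the caspase activated nuclease, rose by 0.50, and Drep4, the nuclease itself, fell by 0.25 (adjusted p = 0.000126 and 0.0111, edgeR), and the other 3 genes did not pass.

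Of 11 genes for the uptake of dead cells, 6 were higher, 2 lower and 3 did not pass, against 30.6% higher and 36.9% lower over all genes. NimC4 (simu), a receptor of phagocytes and glia that binds dying cells, held 63, 98 and 51 counts at 2h APF, against 0, 1 and 2 counts at wL3, and was at least 28.8-fold higher (mean CPM at 2h APF over 3 counts per wL3 library). The hemocyte markers moved the opposite way, as given above. Of the 3 neuron and glia markers, the glia gene repo passed as higher at 2h APF, with a log2 fold change of 0.86 (adjusted p = 0.000241, edgeR). The log2 fold changes of elav and nSyb, 0.06 and 0.82, did not pass (adjusted p = 0.307 and 0.109, edgeR). The part of hemocytes, neurons and glia in the level of NimC4 was not tested. The GTPase gene Rac2, close in sequence to Rac1 and so less certain in its counts, rose by 0.78 (adjusted p = 2.78e-06, edgeR). Jp encodes a junctophilin, a protein of membrane contacts in excitable cells, and fell by 2.73 (adjusted p = 0.0045, edgeR). It held 0.522, 0.582 and 0.211 CPM at 2h APF and 1.63, 4.95 and 2.14 CPM at wL3. The muscle gene Mhc stood at 0.131, 0.116 and 0.176 CPM at 2h APF and at 1.66, 36.3 and 36.1 CPM at wL3. Of the 6 myoblast and muscle markers, to which Mhc belongs, 3 passed as higher at 2h APF, 2 as lower and 1 did not pass. Those 6 markers summed to between 213 and 226 CPM at 2h APF and between 169 and 224 CPM at wL3. The part of muscle in the level of Jp was not tested.

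Of 10 genes that act upstream of the inducers, 5 were higher, 4 lower and 1 did not pass, against 30.6% higher and 36.9% lower over all genes. The hormone induced death factor Eip93F (E93) rose by 2.01 on the log2 scale, with 8.35 ± 1.95 CPM at 2h APF and 2.07 ± 0.772 CPM at wL3 (SD, n = 3 each, edgeR adjusted p = 0.00111). Its libraries held 7.92, 10.5 and 6.64 CPM at 2h APF and 1.33, 2.02 and 2.87 CPM at wL3. The marker nSyb had this order at both stages, and elav and repo did not. The part of neurons and glia in the level of Eip93F was not tested. The ligand gene egr, the fly form of tumor necrosis factor, and its receptor gene wgn rose by 1.02 and 1.56 (adjusted p = 6.18e-05 and 2.56e-06, edgeR). For egr the levels were 44.1, 49.0 and 39.1 CPM at 2h APF, against 23.1, 20.2 and 21.8 CPM at wL3. The other receptor of the ligand, grnd, did not pass, at 120 ± 3.30 CPM at 2h APF and 118 ± 2.52 CPM at wL3 (SD, n = 3 each, log2 fold change 0.03, 95% interval -0.05 to 0.11, edgeR adjusted p = 0.472).

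**Figure D5:**
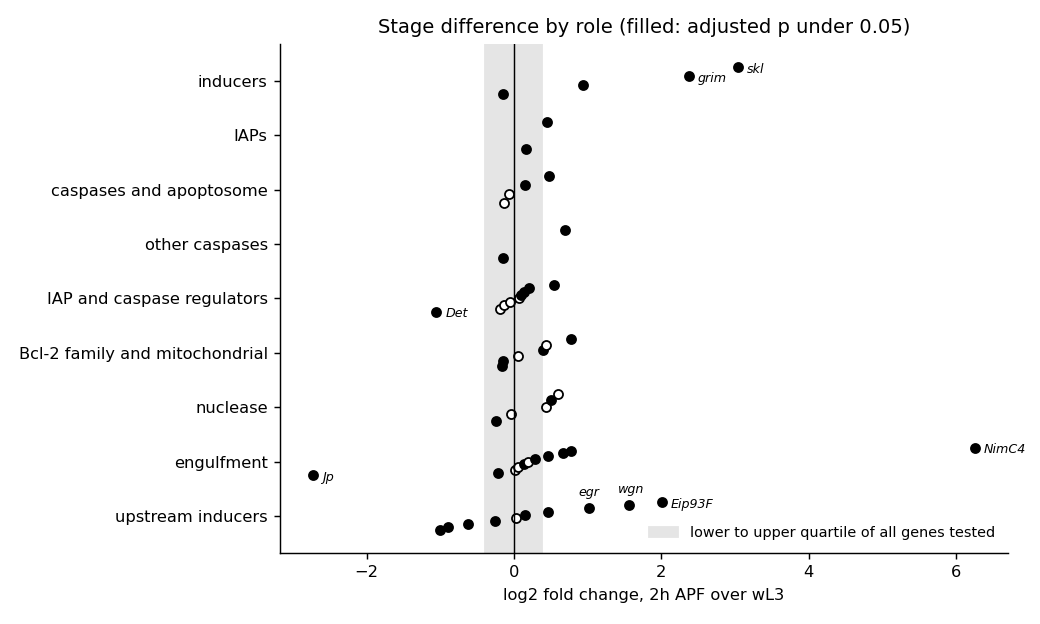
Log2 fold change, 2h APF over wL3, of the 10 core genes (top 3 rows, IAPs being the inhibitors Diap1 and Diap2) and of the other pathway genes by list, filled where the adjusted p was under 0.05. The grey band spans the lower to the upper quartile of all genes tested, from -0.40 to 0.38. Genes beyond 1 log2 unit are named, with NimC4 shown at its fitted value of 6.26, which is not a bound.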

How the data were processed

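Per the labels and the study's methods, the authors pseudoaligned paired-end polyA reads with kallisto to Ensembl 74 transcripts and additional lincRNAs (dm3 per the submitters' processing notes) and deposited, for each of 6 libraries, per target (42506 in each) an estimated count and a TPM value, unscaled between libraries. The kallisto version is not given in the sources used here. The label text on RNA extraction speaks of embryos, whereas the deposited design names leg discs, which was followed, and the titles say only larvae or pupae.

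By transcript identifier 27011 targets were matched to Ensembl's BDGP6.54 annotation, which took up 96.4% to 96.6% of each library's counts. The 2162 FlyBase targets and 13333 other targets without a match were left out of gene sums, so a retired transcript of a death gene would be missed. All coordinates are those of BDGP6.54. Gene sums of the estimated counts were rounded, and genes with identical values in every library (64 groups) were counted once. Stages were compared with edgeR 4.0.16 (TMM, filterByExpr, quasi-likelihood test) in R 4.3.3 without a replicate block, with Benjamini-Hochberg adjustment. The standard error is the log2 fold change divided by the square root of F. On simulated data for the comparison of 2h APF over wL3 (8848 genes), 108 of 108 genes changed by 1 log2 unit and 92 of 92 changed by 2 were recovered, with 14 unchanged genes called. The changed genes were drawn only above a minimum mean CPM, and all genes were given the same dispersion between libraries. The simulation therefore did not test genes with low counts, such as grim, skl and NimC4, or changes smaller than 1 log2 unit. Replicates differed by more than sampling noise (chi-square per gene between 8.86 and 34.7).

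Alternatives were DESeq2 1.42.0, other scalings and filters, limma 3.58.1 on log2(TPM + 0.5) and log2(TPM + 0.1), counts rescaled from TPM, unmatched targets as features, a replicate block, glmTreat, and leaving out each library. The members and lists were chosen with earlier results of these data known. By rule the text names all 10 members, every gene of a list of 4 or fewer, and from each other list the up to 3 genes with the largest absolute change among those that passed. Other named genes were chosen after their values were seen. Plots and tables were made with matplotlib 3.10.9, pandas 2.3.3 and scipy 1.17.1.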

Additional observations from a re-analysis of the deposited data

How the results depend on the processing

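Of the 10 genes, grim and skl kept their call under every alternative that could test them, and the filter of at least 10 counts in every library left both untested. Both passed the main filter on low counts through their 2h APF libraries. Their difference is partly built into that filter, so that keeping the call is no support for it. On log2(TPM + 0.5) with limma, grim was at 1.31 and skl at 1.97, a smaller change by construction at such low levels. In edgeR's glmTreat, which tests against 1 log2 unit and was run after the same main filter, only grim and skl passed. Rpr (0.94), Diap1 (0.45), Dronc (0.47), Diap2 (0.16), Drice (0.15) and hid (-0.16) did not, so that 2 genes were higher and 0 lower, with 0 lower also at an unadjusted p under 0.05, and over all genes 531 were higher and 473 lower. With DESeq2 hid had a log2 fold change of -0.11 and no gene of the 10 passed as lower, that is 0 genes, or 1 gene at an unadjusted p under 0.05. With total library size Diap2 was at 0.051, Drice at 0.038, Dark at -0.18 and Dcp-1 at -0.25. With upper-quartile scaling they were at 0.075, 0.062, -0.16 and -0.23. In both cases 3 of the 10 genes passed as lower, while over all genes 4107 and 3964 passed as lower, against 3297 with TMM. Set against wL3 replicate 1 alone, Diap2 (0.14, adjusted p = 0.0926, edgeR) and Drice (0.11, adjusted p = 0.111, edgeR) did not pass. When single libraries were left out, Dcp-1 ranged from -0.20 to -0.089 and between 1 and 2 of the 10 genes passed as lower. Diap1-RC reversed only with total library size, to -0.042. With CPM in place of TPM the ratio of the inducers to Diap1 was 0.251 at 2h APF and 0.352 at wL3, and was again lower at 2h APF. With the replicate number as a block 5660 genes passed, against 6031 without it, and no call among the 10 genes changed (rpr 0.95, Diap1 0.45). Same-numbered libraries deviated with correlations of -0.01, 0.15 and -0.26, and not every library correlated best with its own number. Low counts limit grim, skl, NimC4, Damm and Decay.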

Other observations

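Of the 10 genes upstream of the inducers, 4 passed as lower at 2h APF, against 36.9% of all genes tested. They are named here after their values were seen, and no theme was tested over them. The kinase gene tefu (ATM) stood at 60.3 ± 2.74 CPM at 2h APF and at 120 ± 7.16 CPM at wL3, mei-41 (ATR) at 28.4 ± 1.35 CPM at 2h APF and 52.9 ± 2.20 CPM at wL3, and lok (Chk2) at 40.6 ± 3.56 CPM at 2h APF and 62.5 ± 1.72 CPM at wL3 (SD, n = 3 each). The log2 fold changes were -0.999, -0.90 and -0.62 (adjusted p = 7.00e-06, 7.55e-06 and 0.000134, edgeR). The transcription factor gene p53 fell by 0.25 (adjusted p = 0.0299, edgeR). The libraries of the stages did not overlap in any of these 4 genes, as in 73.4% of all genes tested. Of the same list, Xrp1, which also takes part in the response to DNA damage, rose by 0.15 (adjusted p = 0.0466, edgeR). The engulfment receptor gene drpr and its adaptor gene Ced-6 rose by 0.66 and 0.46 (adjusted p = 1.00e-05 and 4.03e-05, edgeR), with 201 ± 9.47 and 135 ± 5.05 CPM at 2h APF, against 127 ± 1.05 and 98.1 ± 1.67 CPM at wL3 (SD, n = 3 each).

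The genes with the profile nearest to a death gene were sought in a pool of 6360 tested genes outside the lists, each averaging 10 CPM or more. Nearness was the root mean square difference of log2 CPM over the 6 libraries, each gene centred on its own mean. Nearest to rpr were CG17834 and Atox1, at a difference of 0.0814 and 0.0881. Nearest to hid were SdhB and CG5961, at 0.0138 and 0.0173, and nearest to Diap1 were PPP4R2r and Lac, at 0.0221 and 0.0226. With 2 stages of 3 libraries many genes share such a profile.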
